A study of Mus musculus with 6 samples.

Results

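The genes described here are the DNA methyltransferase genes Dnmt1, Dnmt3a and Dnmt3b, together with Dnmt3l and Uhrf1, whose proteins assist them. Every probe set whose annotation names 1 of these 5 genes and no other was taken, which gave 13 of the 45101 probe sets on the array: 3 for Dnmt1, 5 for Dnmt3a, 2 for Dnmt3b, 1 for Dnmt3l and 2 for Uhrf1. The 5 genes are among 18194 named on the array. Each probe set is described separately. In RefSeq's GRCm38.p6 annotation, Dnmt1 lies at chr9:20907206-20959888, Dnmt3a at chr12:3801559-3914443, Dnmt3b at chr2:153649411-153687730, Dnmt3l at chr10:78042287-78063622 and Uhrf1 at chr17:56303337-56323486. The cells were a mouse embryonic stem cell line, named 27H in the sample titles and 27H10 in the series title, with both copies of Dicer lost (Dicer -/-), so that all 6 samples lack the enzyme that cuts microRNAs out of their precursors. In the control group, 3 samples received an siRNA against Renilla luciferase (siRL), which has no intended target in mouse cells. In the treated group, 3 samples received Dharmacon mimics of the microRNAs of the mmu-miR-290 cluster. All were undifferentiated and were harvested 24 h after transfection. It is 1 line, the labels do not say that the replicates were separate cultures, and the p-values measure no more than how these arrays vary, part of which may be technical.

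DNA methylation in mammals is laid down and kept by different enzymes. DNMT3A and DNMT3B methylate CpG sites that carried no mark before (de novo methylation). DNMT3L resembles them but has no catalytic activity of its own, and binds and stimulates them. DNMT1 copies existing marks onto the new strand after replication, and UHRF1 reads the half-methylated site and brings DNMT1 to it. Mouse embryonic stem cells express all 5 genes, and their level of DNA methylation depends on the balance of these enzymes with the pathways that remove the mark. The comparison asks what happens to the transcripts of this machinery when the main embryonic stem cell microRNAs are put back into cells that cannot make them.

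A microRNA finds its targets mainly by pairing its seed, bases 2 to 8, with the messenger RNA. RefSeq (GRCm38.p6) gave the 13 mature sequences of this cluster that were used here, on the plus strand of chromosome 7, 6 of them from the 3p arm. The miR-292a-3p sequence was not used here and is outside these counts. These 6 are shown, with the seed in capitals, because most of them share their first 6 seed bases. The labels name the cluster and do not list which mature sequences were in the mix.
mmu-miR-291a-3p: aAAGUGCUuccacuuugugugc
mmu-miR-294-3p: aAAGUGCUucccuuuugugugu
mmu-miR-295-3p: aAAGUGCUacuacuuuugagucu
mmu-miR-290a-3p: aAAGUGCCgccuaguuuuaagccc
mmu-miR-291b-3p: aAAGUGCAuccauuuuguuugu
mmu-miR-293-3p: aGUGCCGCagaguuuguagugu
The seed AAGUGCU is shared by miR-291a-3p, miR-294-3p and miR-295-3p. With miR-290a-3p and miR-291b-3p, which differ in the last seed base, 5 of the 13 mature sequences begin their seed with AAGUGC. The seed of miR-293-3p is GUGCCGC. Of the 5p arms, 5 share the first 6 seed bases CUCAAA. Whether the transcripts of the 5 genes hold matches to these seeds was not analysed here.

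The deposited values are linear intensities, and each array had a median between 41.7 and 44.9. The arrays correlated at 0.963 to 0.969 within groups and at 0.959 to 0.964 between groups on the log2 scale, and none stood apart. Differences were tested with limma on log2 intensities over the 29167 probe sets whose mean log2 reached 4, and p-values were adjusted over all of them by the Benjamini-Hochberg method with a threshold of 0.05. All 13 probe sets passed the filter. A 2nd fit lets the prior variance follow the signal level with robust estimation and is called the level-dependent prior here. The embryonic stem cell genes Pou5f1, Nanog, Sox2, Zfp42 and Dppa5a were bright on every array, at 10219 or more.

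The de novo methyltransferase genes and Dnmt3l were higher in the cells with the mimics on most of their probe sets, and Dnmt1 was not. At an adjusted p under 0.05 in limma, 4 of the 13 probe sets rose and 0 fell, while among all tested probe sets 0.343% were called higher and 0.946% lower (1.29% in either direction). The 4 belong to Dnmt3a (2), Dnmt3b (1) and Dnmt3l (1). The level-dependent prior called 8 of the 13 higher, with both Uhrf1 probe sets among them, and 0 lower, against 4.73% higher and 6.56% lower of all tested probe sets. The split of that background into higher and lower calls depends on the scaling: 41.9% of its calls were higher as deposited, 28.8% after centring each array on the median of all probe sets, and 55.3% after centring on the median of the tested ones. At an unadjusted p under 0.05 in limma there were 8 of the 13, against 20.1% of all. For 7 of the 13, all 3 mimic values lay above all 3 control values, which 13.8% of all tested probe sets also did. For 3 of the 13, all Dnmt1, they lay below, as in 15.5% of all. In bulk samples, more RNA per cell and more cells with the RNA cannot be told apart.

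**Figure D1:**
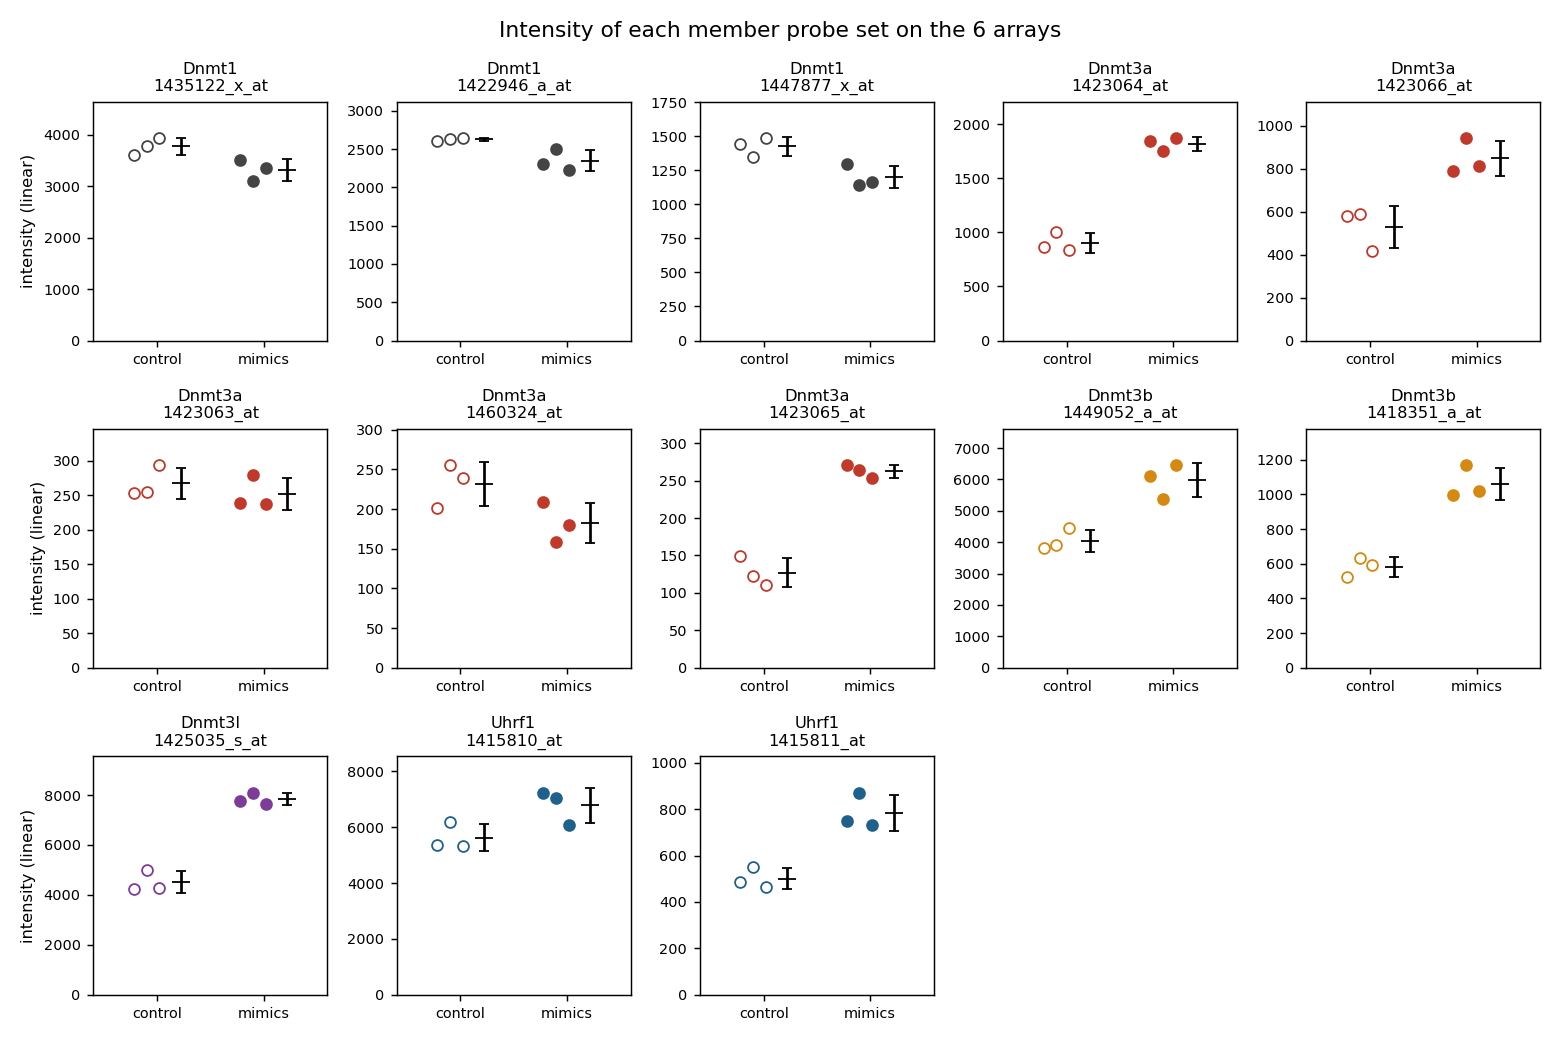
Linear intensity (vertical axes, each from 0) of the 13 probe sets in the 3 control siRNA arrays (open points) and the 3 miR-290 mimic arrays (filled points), with the mean and SD of each group beside them. All 3 mimic values lie above all 3 control values for 3 of 5 Dnmt3a probe sets and both of Dnmt3b. The same holds for the Dnmt3l probe set and 1 of 2 Uhrf1 probe sets. For all 3 Dnmt1 probe sets the mimic values lie wholly below the controls, by a much smaller step. Of all tested probe sets, 13.8% lay wholly above and 15.5% wholly below.

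Dnmt3a, which encodes a de novo methyltransferase, doubled on its brightest probe set. This probe set (1423064_at) read 864, 1008 and 842 in the control arrays and 1842, 1749 and 1871 in the mimic arrays. The lowest mimic value was well above the highest control value. The means were 904 ± 90.2 and 1821 ± 63.8 (SD, n = 3 each), a 2.02-fold rise (log2 difference 1.01 ± 0.098 SE, 95% interval 0.77 to 1.26, limma adjusted p = 0.0338). The change was higher than this in 2.75% of all tested probe sets.

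A dimmer Dnmt3a probe set (1423065_at) gave the same size of change. It read 149, 122 and 110.2 in the controls and 270.3, 265 and 253 after the mimics, so the groups did not overlap. The log2 difference was 1.06 ± 0.13 SE (limma adjusted p = 0.0433). The third one (1423066_at) read 582, 587 and 417 and then 791, 942 and 812. These groups did not overlap either, but the third control array was low, and the log2 difference of 0.70 ± 0.17 SE did not pass in limma (adjusted p = 0.111). It passed with the level-dependent prior (adjusted p = 0.00597, and between 0.00318 and 0.0274 over the 11 alternatives with that prior).

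The other 2 Dnmt3a probe sets were not higher. One (1423063_at) read 253, 254 and 293 and then 239, 279 and 237, with a log2 difference of −0.09 (95% interval −0.36 to 0.19, limma adjusted p = 0.704). The other (1460324_at) read 201, 255 and 239 and then 209, 158 and 179.7, a log2 difference of −0.35 (95% interval −0.72 to 0.03, limma adjusted p = 0.279). Both are among the 3 dimmest of the 13, and the groups of both overlapped. The dimmest of the 13 is 1423065_at, which was higher with the mimics (mean log2 of 7.51, beside 8.01 for 1423063_at and 7.67 for 1460324_at). The annotation gives all 5 Dnmt3a probe sets the same source sequence, and where each lies on the transcript was not analysed here. Over the 6 arrays the 3 probe sets that were higher tracked each other (Pearson r of 0.906 to 0.954 on log2 values, group difference included), and each ran against 1460324_at (r of −0.67 to −0.80). The difference between the change of 1423063_at and that of the brightest one was −1.10, and for 1460324_at it was −1.36, both at exact permutation p = 0.1, the smallest that 3 against 3 arrays allow (0.267 after adjustment over the 8 pairs of probe sets of 1 gene). The rise of Dnmt3a thus rests on 3 of its 5 probe sets, the brightest included.

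Dnmt3b, the other de novo enzyme gene, was higher on both probe sets. The brighter one (1449052_a_at) read 3801, 3898 and 4441 in the control arrays and 6103, 5379.9 and 6448 in the mimic arrays. All 3 mimic arrays exceeded all controls, and the ratio was 1.48-fold (log2 difference 0.56 ± 0.11 SE, 95% interval 0.28 to 0.84). This missed the threshold in limma (adjusted p = 0.0778) and passed with the level-dependent prior (adjusted p = 0.000883, 0.000336 to 0.00673 over the 11 alternatives with it). The dimmer one (1418351_a_at) rose from 521, 631 and 592 to 999, 1168 and 1020.0, a 1.83-fold change (log2 difference 0.87 ± 0.11 SE, limma adjusted p = 0.0453). The dimmer one changed by 0.31 more than the brighter one, with overlapping arrays (exact permutation p = 0.2). Both carry the Affymetrix suffix _a_at, given to probe sets that match several transcript forms of 1 gene.

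Dnmt3l, the gene of the inactive partner, has 1 probe set (1425035_s_at). Its control values were 4219, 5016 and 4279, and its mimic values 7742, 8098 and 7646. The mimic arrays lay close together and far above the controls. The rise was 1.74-fold (log2 difference 0.80 ± 0.096 SE, 95% interval 0.56 to 1.04, limma adjusted p = 0.0432). Of all tested probe sets, 4.60% had a higher change and 0.706% a smaller p. The suffix _s_at marks probe sets that may match transcripts of more than 1 gene, so a share of its signal could come from elsewhere, although the annotation gives it 1 symbol.

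**Figure D2:**
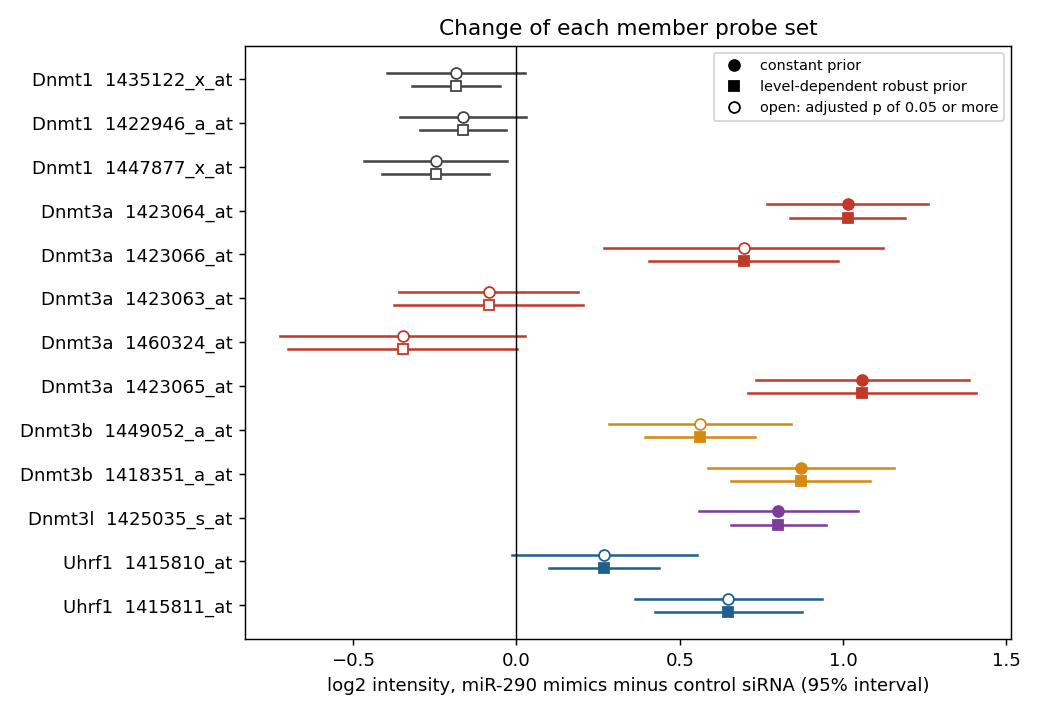
Log2 intensity of the mimic arrays minus the control arrays (horizontal axis) with its 95% interval for each probe set, from the fit with a constant prior (circles) and with the level-dependent prior (squares). Filled symbols have an adjusted p under 0.05; 4 circles and 8 squares are filled, and no Dnmt1 symbol is.

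Uhrf1, whose protein guides DNMT1 to newly replicated DNA, was called higher on both probe sets by the level-dependent prior and on 0 by limma with a constant prior (1 at an unadjusted p under 0.05). The bright one (1415810_at) read 5361, 6199 and 5328 and then 7242, 7046 and 6071. The third mimic array was below the second control array, so the groups overlapped. The log2 difference was 0.27 ± 0.11 SE (95% interval −0.01 to 0.55, limma adjusted p = 0.27), and the adjusted p with the level-dependent prior was 0.0439. That call was lost without control replicate 1 (0.142), control replicate 3 (0.153), mimic replicate 1 (0.165) or mimic replicate 2 (0.134). It was also lost after centring on the median of all probe sets (0.139) and after quantile normalization (0.0842), so that it stood in 5 of the 11 alternatives with this prior. The dim one (1415811_at) read 484, 550.1 and 465 and then 749.5, 871 and 729.7, with no overlap. Its log2 difference was 0.65 ± 0.11 SE (limma adjusted p = 0.0677, and 0.00222 with the level-dependent prior, 0.00138 to 0.0124 over the 11 alternatives with it). The dim probe set changed by 0.38 more than the bright one (exact permutation p = 0.1, 0.267 after adjustment), so the size of the Uhrf1 difference is not settled between them.

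Dnmt1, the maintenance methyltransferase gene, was slightly lower on all 3 probe sets and passed on 0 of them. The brightest (1435122_x_at) read 3611, 3775 and 3929.8 in the control arrays and 3509, 3092 and 3356 in the mimic arrays. The probe set 1422946_a_at read 2609, 2628 and 2640.5 and then 2308, 2502 and 2231. The third (1447877_x_at) read 1440.2, 1351 and 1486 and then 1294, 1143 and 1167. In each of them every mimic array was below every control array, but only by a small step. The log2 differences were −0.19 ± 0.084, −0.16 ± 0.076 and −0.25 ± 0.087 (SE), and the limma adjusted p-values were 0.301, 0.313 and 0.205. Of the 3, 1 had an unadjusted p under 0.05. The level-dependent prior gave adjusted p-values of 0.0795, 0.114 and 0.0546, also above the threshold. With that prior, 1447877_x_at was called lower after centring on the median of all probe sets (adjusted p = 0.0422) and with the replicate block (0.0442), and in none of the other 9 alternatives with it. The 95% intervals run from −0.47 at the lowest to 0.03 at the highest over the 3 probe sets, so a rise of the size seen for Dnmt3a lies outside all of them. The suffix _x_at of 2 of these probe sets marks probes that may also bind unrelated transcripts, while the third has no such mark and gave a similar value.

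**Figure D3:**
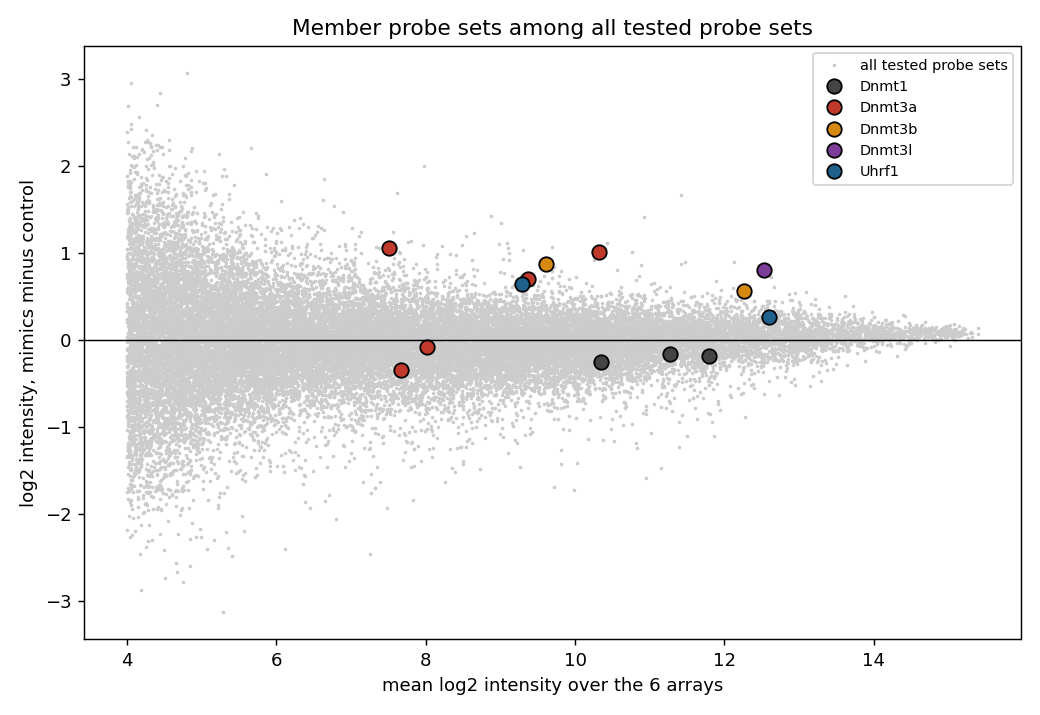
Log2 difference between mimic and control arrays (vertical axis) against mean log2 intensity (horizontal axis) for the 29167 tested probe sets (grey) and the 13 probe sets of the 5 genes (coloured). The brightest Dnmt3a point is at 1.01 and the Dnmt3l point at 0.80, changes that 2.75% and 4.60% of the tested probe sets exceed, while the 3 Dnmt1 points lie between −0.25 and −0.16.

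The genes were then compared with each other inside each array, which takes out any factor common to an array. For the brightest probe set of each gene, the log2 ratio between 2 genes was compared between mimic and control arrays, over all 10 pairs. The ratio of Dnmt3a to Dnmt1 was higher by 1.20, with a spread of 0.159 among the control arrays and 0.057 among the mimic arrays (SD, n = 3 each). The ratio to Dnmt1 was higher by 0.99 for Dnmt3l, 0.75 for Dnmt3b and 0.45 for Uhrf1. Each of these 4 had an exact permutation p = 0.1, the smallest that 3 against 3 arrays allow, and 0.125 after adjustment over the 10 pairs, so no pair could pass 0.05. In all, 8 of the 10 pairs reached that smallest p. The 2 that did not were Dnmt3b against Dnmt3l (difference −0.24, exact permutation p = 0.3) and Dnmt3b against Uhrf1 (0.29, exact permutation p = 0.2), whose arrays overlapped. The pairs reuse the same brightest probe sets, so they are not separate results. How often other pairs of probe sets reach this p was not computed. Among single tested probe sets, the mimic arrays lay wholly above the controls in 13.8% and wholly below in 15.5%. The change of Dnmt3a was also larger than that of Dnmt3b by 0.45, of Dnmt3l by 0.21 and of Uhrf1 by 0.74, and that of Dnmt3l was larger than that of Uhrf1 by 0.53. By these brightest probe sets the changes ran from Dnmt3a through Dnmt3l, Dnmt3b and Uhrf1 to Dnmt1, and the arrays of the neighbours Dnmt3l and Dnmt3b, and Dnmt3b and Uhrf1, overlapped. Other probe sets give another order: the dimmer Dnmt3b one (0.87) was above Dnmt3l (0.80), and the dim Uhrf1 one (0.65) above the brighter Dnmt3b one (0.56). The Dnmt3a probe sets 1423063_at (−0.09) and 1460324_at (−0.35) were below every probe set of Dnmt3l, Dnmt3b and Uhrf1. The second of them was also below all 3 Dnmt1 probe sets (−0.25 to −0.16). The ratio of 1.20 and the first place of Dnmt3a thus do not hold for all 5 Dnmt3a probe sets. The medians over all probe sets of a gene were 0.80 for Dnmt3l, 0.72 for Dnmt3b, 0.70 for Dnmt3a, 0.46 for Uhrf1 and −0.19 for Dnmt1.

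**Figure D4:**
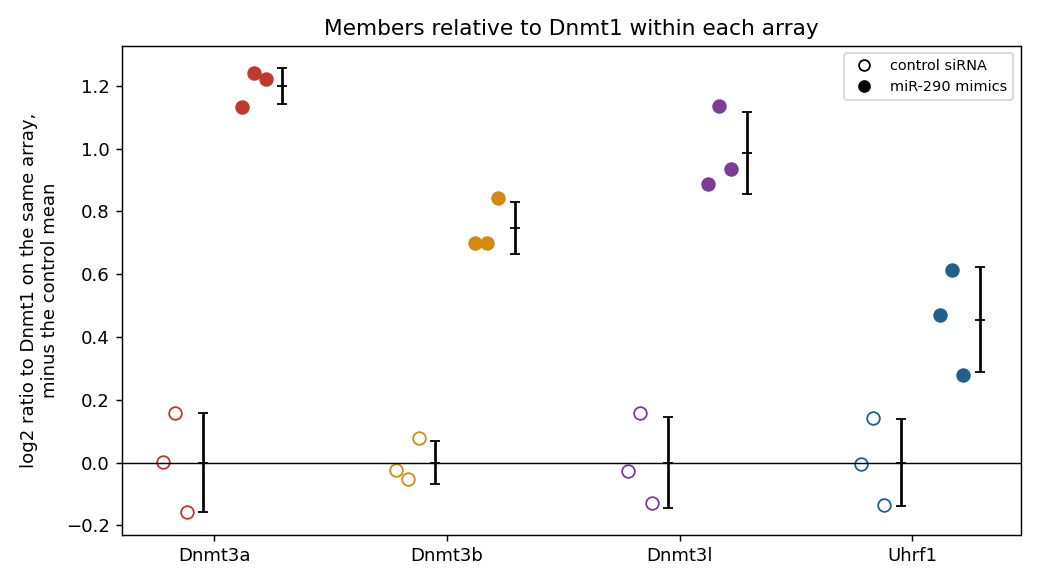
Log2 ratio of the brightest Dnmt3a, Dnmt3b, Dnmt3l and Uhrf1 probe sets to the brightest Dnmt1 probe set on the same array, minus the mean of the control arrays (vertical axis), with the mean and SD of each group of 3 arrays. Open points are control siRNA and filled points miR-290 mimics. For all 4 genes the mimic arrays lie above the control arrays, most for Dnmt3a (1.20) and least for Uhrf1 (0.45). The Dnmt3a probe sets that were not higher (1423063_at and 1460324_at) are not shown.

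The variation among control arrays was partly shared. Control replicate 2 had the highest value of the 3 for the brightest probe sets of Dnmt3a, Dnmt3l and Uhrf1 (1008, 5016 and 6199), but not for that of Dnmt3b (3898) or Dnmt1 (3775). The log2 ratio of Dnmt3a to Dnmt3l accordingly had an SD of 0.029 among the controls, and that of Dnmt3a to Uhrf1 0.021, against 0.225 for Dnmt3a to Dnmt3b. Among the mimic arrays the same ratios had SDs of 0.095, 0.171 and 0.083. With 3 arrays in a group these spreads are a description only.

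The array pattern of each gene was also set against all other named probe sets. For the brightest Dnmt3a probe set the highest Pearson correlations over the 6 arrays were with Ube2j2, a ubiquitin-conjugating enzyme gene, and Mocs2, of molybdenum cofactor synthesis (both r = 0.999), and 2.14% of the named probe sets reached 0.95. For Dnmt3l they were with Uqcr10, a respiratory chain subunit gene, and Selenoh, a selenoprotein gene (both r = 0.998), and 2.26% reached 0.95. For Dnmt3b they were with Coa5 (0.998) and the DNA polymerase theta gene Polq (0.996), for Uhrf1 with the chaperonin gene Tcp1 (0.998) and Ift20 (0.996), and for Dnmt1 with Purb (0.998) and Atad2 (0.996). None of these 10 neighbours passed in limma with a constant prior (limma adjusted p from 0.0725 to 0.55). Whether they passed with the level-dependent prior is not given here. With 6 arrays in 2 groups many probe sets reach such values, so the neighbours are named as a description.

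Promoters of the 5 genes were read because Dnmt3a, Dnmt3b and Dnmt3l were higher together. RefSeq (GRCm38.p6) gives 12 windows of 300 bases for them, from 250 bases before to 50 after each annotated start: 3 for Dnmt1, 3 for Dnmt3a, 1 for Dnmt3b, 3 for Dnmt3l and 2 for Uhrf1. They were searched on both strands for the E2F-type motifs TTTCGCGC, TTTGGCGC, TTTCCCGC and GGCGGGAA (the last 2 can overlap each other), for the GC box GGGCGG, which Sp1-family factors bind, and for TATAAA. The window with the lowest coordinates is shown for Dnmt3a, Dnmt3b and Dnmt3l, and the one with TTTCGCGC for Uhrf1 and Dnmt1, with every match in capitals. Of the windows shown, that of Dnmt3l surrounds the outermost annotated start of its gene, and the other 4 surround starts that lie inside the annotated gene.
Dnmt3a, chr12:3806730-3807029, plus strand: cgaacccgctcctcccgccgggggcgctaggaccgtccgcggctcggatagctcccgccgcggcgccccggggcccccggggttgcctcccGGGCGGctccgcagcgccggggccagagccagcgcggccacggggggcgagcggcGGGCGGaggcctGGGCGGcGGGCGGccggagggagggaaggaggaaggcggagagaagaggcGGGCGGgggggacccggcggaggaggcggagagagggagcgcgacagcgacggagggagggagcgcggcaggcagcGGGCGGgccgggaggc
Dnmt3b, chr2:153649199-153649498, plus strand: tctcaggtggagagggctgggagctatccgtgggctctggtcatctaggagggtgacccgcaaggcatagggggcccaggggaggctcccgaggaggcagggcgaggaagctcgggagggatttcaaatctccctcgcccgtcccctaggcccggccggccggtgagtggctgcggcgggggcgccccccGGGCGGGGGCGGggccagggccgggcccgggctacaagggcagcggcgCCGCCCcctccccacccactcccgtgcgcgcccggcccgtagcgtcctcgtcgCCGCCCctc
Dnmt3l, chr10:78042037-78042336, plus strand: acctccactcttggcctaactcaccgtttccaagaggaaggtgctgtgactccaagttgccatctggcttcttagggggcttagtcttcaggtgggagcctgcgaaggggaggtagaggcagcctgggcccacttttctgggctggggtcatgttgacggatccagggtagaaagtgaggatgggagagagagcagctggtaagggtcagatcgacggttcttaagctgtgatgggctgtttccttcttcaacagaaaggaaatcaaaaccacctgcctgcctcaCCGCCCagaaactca
Uhrf1, chr17:56304063-56304362, plus strand: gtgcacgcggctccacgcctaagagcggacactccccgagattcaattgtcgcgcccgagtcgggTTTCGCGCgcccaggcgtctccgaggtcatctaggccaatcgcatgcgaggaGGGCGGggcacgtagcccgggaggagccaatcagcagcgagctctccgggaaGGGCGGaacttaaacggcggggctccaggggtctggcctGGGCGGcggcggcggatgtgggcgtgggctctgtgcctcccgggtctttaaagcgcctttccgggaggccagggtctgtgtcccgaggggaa
Dnmt1, chr9:20952574-20952873, minus strand: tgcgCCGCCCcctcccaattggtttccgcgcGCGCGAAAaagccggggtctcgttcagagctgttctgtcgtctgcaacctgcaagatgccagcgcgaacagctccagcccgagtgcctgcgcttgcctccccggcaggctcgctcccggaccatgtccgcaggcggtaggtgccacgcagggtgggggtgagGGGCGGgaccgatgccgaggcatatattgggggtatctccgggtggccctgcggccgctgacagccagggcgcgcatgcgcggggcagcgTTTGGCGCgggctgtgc
E2F-type letters were found in 3 of the 12 windows, both of Uhrf1 and 1 of Dnmt1, and in none of the 7 windows of Dnmt3a, Dnmt3b and Dnmt3l. Among all 32851 windows, 3.49% hold at least 1 of these 4 motifs and 0.323% hold TTTCGCGC. The Dnmt1 window holds TTTCGCGC starting 219 bases before the start and TTTGGCGC at base 34 after it, and the Uhrf1 window holds TTTCGCGC 185 bases before. The other Uhrf1 window has GGCGGGAA 48 bases before its start. The GC box is present in 9 of the 12 windows, and in 35.7% of all windows. It occurs 6 times in the Dnmt3a window shown, 4 times in that of Dnmt3b and 1 time in that of Dnmt3l. Of the 3 Dnmt3a windows, 2 overlap and share some GC boxes, so the windows are not all separate. GC content was 82.3% in the Dnmt3a window shown, 76% for Dnmt3b, 69.7% for Dnmt1, 68.3% for Uhrf1 and 54.7% for Dnmt3l. The median over all windows was 52.7%, and the share was not computed for windows of like GC content. TATAAA was in none of the 12, against 13.6% of all. The CpG content, the substrate of these enzymes, differs widely: 46 CpG in the Dnmt3a window shown, 33 in those of Dnmt1 and Uhrf1, 30 in that of Dnmt3b and 6 in that of Dnmt3l, beside a median of 7 over all windows. The windows shown were chosen by different rules, which affects this comparison. The windows not shown hold 47 and 18 CpG for Dnmt3a, 4 and 3 for Dnmt3l, 12 for Uhrf1, and 2 and 12 for Dnmt1. Dnmt3a, Dnmt3b and Dnmt3l thus differ in the CpG content of the windows shown. A match, or none, in these windows says nothing about which factor binds.

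Other genes of DNA methylation were counted through the brightest probe set of each, and other probe sets that passed are named. Of 10 partners of maintenance methylation, 0 passed in limma (1 at an unadjusted p under 0.05), and the level-dependent prior called 1 higher, Dmap1, which encodes a DNMT1-associated protein (log2 difference 0.27). A dimmer probe set of Parp1, the gene of a poly(ADP-ribose) polymerase, also passed with that prior (0.23, limma adjusted p = 0.0191 with it). The median of that list was 0.12, beside −0.01 over all 13815 genes, and Hells, a remodeller needed for methylation, gave 0.21 (limma adjusted p = 0.28). By gene, 0.456% of all were called higher and 1.38% lower in limma (0.594% and 1.69% through any of their probe sets), and 6.2% and 9.43% with the level-dependent prior. Of 11 measured genes for targeting and repressor partners, among them Zfp57, Trim28 and Setdb1, 0 passed in limma (1 at an unadjusted p under 0.05) or with the level-dependent prior, and the median was −0.03. Of 8 measured genes that oxidise, repair or protect methylated sites, 0 passed in limma (3 at an unadjusted p under 0.05). The level-dependent prior called Dppa3, which protects the maternal genome from demethylation, higher (0.51) and Apobec1 (−0.55) and Smug1 (−0.34) lower. The dioxygenase genes Tet1 and Tet2 gave −0.03 and −0.01, and the median was −0.02. Of 7 measured genes of methyl donor supply, 0 passed by either prior, and 0 had an unadjusted p under 0.05 in limma; the median was 0.11. Dimmer probe sets of the serine hydroxymethyltransferase genes did pass with the level-dependent prior: 2 of Shmt1 (0.79 and 0.52, limma adjusted p = 0.000685 and 0.00134 with it) and 1 of Shmt2 (0.28, 0.0467). The brightest probe sets of these genes gave 0.21 and 0.15.

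Among 9 measured transcription factors and repressors reported at these genes, 1 passed in limma (4 at an unadjusted p under 0.05, 1 higher and 3 lower). This was Rbl2, which encodes the pocket protein p130, a partner of repressive E2F factors. It read 350.3 ± 44.8 in the control arrays and 94.1 ± 26.7 in the mimic arrays (SD, n = 3 each, log2 difference −1.93, limma adjusted p = 0.0453). The other Rbl2 probe set gave −1.30 (limma adjusted p = 0.0876, and 0.0397 with the level-dependent prior, so it was called lower with that prior only). The list was drawn up with knowledge of this study, so Rbl2 is not independent evidence. The level-dependent prior also called Rb1 lower (−0.45), and Rbl1, the third pocket protein gene, gave −0.32 (limma adjusted p = 0.153, and 0.0654 with that prior). Sp1 and Sp3 gave 0.06 and 0.18, and E2f1 and E2f4 0.22 and 0.31, on their brightest probe sets, and none of these 4 passed. The other 2 Sp1 probe sets ran the opposite way, at −0.23, called lower with the level-dependent prior (limma adjusted p = 0.0172 with it), and −0.38, not called (0.0578), and the other tested E2f1 probe set gave −0.09. The median of the list was 0.06. Beside these counts, 0.456% of all genes were called higher and 1.38% lower in limma, and 6.2% and 9.43% with the level-dependent prior. An unadjusted p under 0.05 in limma was found for 20.1% of all tested probe sets.

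Cell state markers were set beside these changes, since Dnmt3a and Dnmt3b are also higher in the primed epiblast than in naive embryonic stem cells. The shares over all genes were 0.456% called higher and 1.38% lower in limma, and 6.2% and 9.43% with the level-dependent prior. An unadjusted p under 0.05 in limma was found for 20.1% of all tested probe sets. Of 10 pluripotency genes 0 passed in limma (1 at an unadjusted p under 0.05) and the level-dependent prior called 1, Esrrb, higher (0.23), with a median of 0.02. The dimmer Esrrb probe sets gave 0.05 and −0.10 and did not pass by either prior. Pou5f1 gave 0.10, Nanog −0.05 and Sox2 −0.02, and none of these 3 passed. The summed intensity of Pou5f1, Nanog, Sox2, Zfp42 and Dppa5a was 81165 to 88930.2 in the control arrays and 85442 to 90662 in the mimic arrays. Of 7 primed epiblast genes 0 passed in limma (3 at an unadjusted p under 0.05), and the level-dependent prior called 3 higher: Etv4 (0.81), Lef1 (0.75) and Pou3f1 (0.31). Dimmer probe sets of Etv4, Lef1 and Pou3f1 gave 1.94, 0.10 and 0.74, and did not pass by either prior. Otx2 gave 0.21, Zic2 0.01, Sox4 −0.12 and Fgf5 −0.19, and none of these passed by either prior. The median of the list was 0.21. The sum of Fgf5, Pou3f1 and Otx2 was 1852 to 2141 and then 2271 to 2412. Otx2, its largest part, was between 1221 and 1657 on all arrays, and Fgf5 between 34.3 and 58.2. Their part in the rise of the Dnmt3 genes was not tested. Of 9 measured germ layer and trophectoderm genes 0 passed by either prior (0 at an unadjusted p under 0.05; median 0.05), and the sum of the 10 on the array was 1076 to 1287 and then 1003 to 1198. Of 9 fibroblast genes 5 were measured and 0 passed in limma (3 at an unadjusted p under 0.05, 1 higher and 2 lower). The level-dependent prior called S100a4 lower (−1.29), and the median of the 5 was −0.90. The sum of the 7 fibroblast markers, S100a4 and Pdgfrb left aside, was 317 to 352 and then 239 to 317. None of the 7 was at 0, and the collagen genes Col1a1, Col1a2 and Col3a1 were at 32.2 or less on every array. The part of these genes in the results was not tested.

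**Figure D5:**
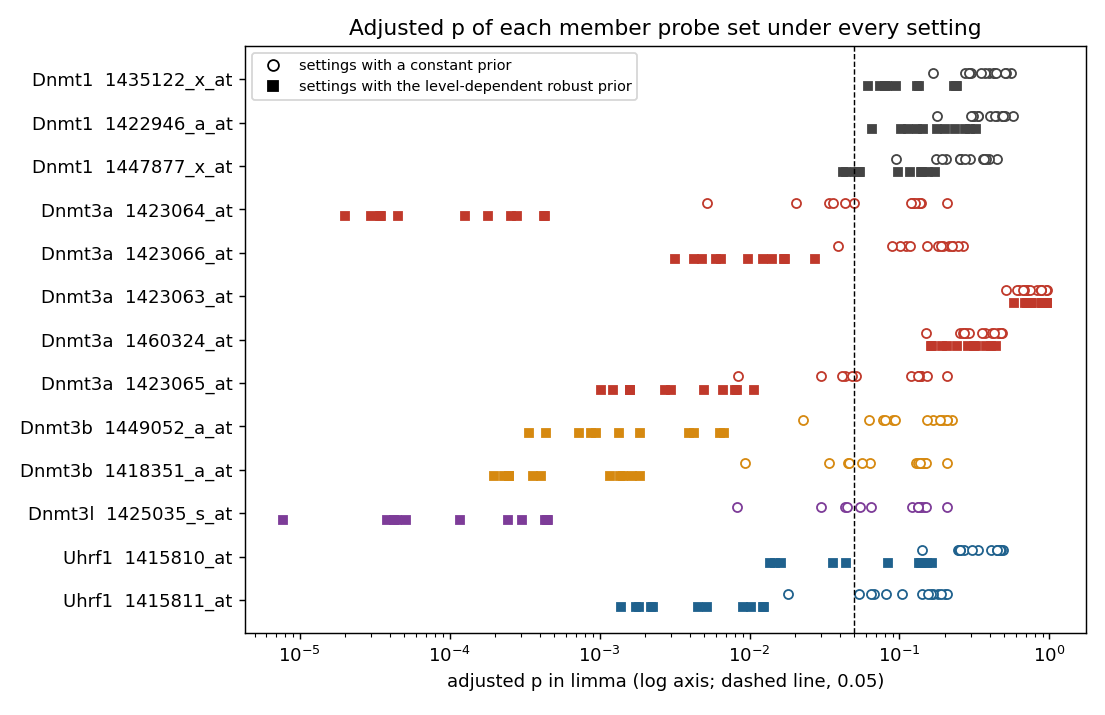
Adjusted p in limma (horizontal log axis, dashed line at 0.05) of each of the 13 probe sets under every setting, with settings that use a constant prior as open circles and those that use the level-dependent prior as squares. Squares of the 3 higher Dnmt3a probe sets, of Dnmt3b, Dnmt3l and the dim Uhrf1 probe set all lie below 0.05, whereas circles lie on both sides of it.

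The calls changed with the prior and with the arrays used. With a constant prior, leaving out any 1 of the 6 arrays ended all 4 calls, with limma adjusted p-values between 0.119 and 0.152 for them, and centring each array on the median of all probe sets kept 1, the brightest Dnmt3a probe set (0.0497). With the level-dependent prior, 7 probe sets (3 of Dnmt3a, 2 of Dnmt3b, Dnmt3l and the dim Uhrf1 probe set) were called higher in all 11 alternatives that use it, 6 of which leave out 1 array. Each of these 11 called between 730 and 1762 of the 29167 tested probe sets higher. How many of all probe sets were called in all 11 was not computed. Over all 24 alternatives the brightest Dnmt3a probe set changed by 0.96 to 1.09, Dnmt3l by 0.76 to 0.88, the 2 Dnmt3b probe sets by 0.51 to 0.64 and 0.79 to 0.93, and Dnmt1 by −0.30 to −0.12, all on the log2 scale.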

How the data were processed

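Per the labels, biotinylated cRNA from total RNA was hybridised to Affymetrix arrays, 1 for each of 3 control siRNA and 3 miR-290 mimic samples. The deposited values are linear intensities that the authors scaled: the mean of each array without the lowest and highest 2% is 500.004. GCRMA is named in the submitters' processing notes but usually gives log2 values, so the tool behind these intensities, its version and its background correction are not settled, and precision is limited by the number of arrays. Because the deposited intensities are linear, log2 was taken with no offset. Control probe sets (64) and 15870 with a mean log2 under 4 were left out. The other 29167 were fitted with limma 3.58.1 (R 4.3.3; lmFit, eBayes, 2-sided), groups being taken from the sample titles. A gene in a list is represented by its brightest probe set with 1 symbol. Of 89 list genes, 75 were measured, 5 had no such probe set and 9 were below the filter. Named are all 13 probe sets, up to 3 called members of each list, Rbl2, Pou5f1, Nanog and Sox2, and for each gene the 2 most alike probe sets; other list members in the text were picked with their values in view. The members and lists were chosen with earlier results of these data known. The fits were tested on simulated data. Alternatives were the prior, centring, quantile normalization, an offset of 16, other filters, the replicate block and leaving out each array. Promoter and microRNA sequences are from RefSeq, GRCm38.p6.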

Additional observations from a re-analysis of the deposited data

How the results depend on the processing

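No alternative turned the direction of any of the 13 probe sets: of 312 values over 24 alternatives, 232 kept their side of the threshold, 37 lost a call, 43 gained one and 0 reversed. The 4 higher member calls became 8 with the level-dependent prior, 7 with a filter at a mean log2 of 6, 1 with median centring, 2 with centring on the tested probe sets (chosen after seeing the data, as were the centred and quantile-normalized fits with the level-dependent prior), 0 with no filter and 0 with the replicate block. Calls over all probe sets went from 376 to 3293, 2373, 208, 153, 0 and 0 in the same order, and to 628 with the offset of 16; list members called went from 1 to 11, 9, 1, 0, 0 and 0, and to 2 with the offset. With the level-dependent prior, median centring gave 7 higher and 1 lower member calls (Dnmt1 1447877_x_at), 2781 in all and 9 list members; quantile normalization 7, 3216 and 11; centring on the tested probe sets 8, 3185 and 14. The replicate block with that prior gave 8 higher and 1 lower, 3558 and 13. Whether the replicate numbers pair the arrays is not settled. The deviations of same-numbered arrays correlated at −0.15, 0.26 and 0.28. The best-matching control array had the same number for mimic replicates 2 and 3, and was control replicate 3 for mimic replicate 1. Without 1 array at a time the constant prior called 0 members, 0 to 1 probe sets (4612 to 5205 at an unadjusted p under 0.05) and 0 list members, and the level-dependent prior 7 to 8 members, 1971 to 2844 probe sets (2217 without control replicate 1, and 2026, 2271 and 2454 without mimic replicates 1, 2 and 3) and 6 to 11 list members (10 without mimic replicate 2). The difference between the changes of Dnmt3a and Dnmt1 stayed between 1.12 and 1.28. The cause of these shifts was not tested. Signal over background was not analysed here, which limits the dimmest Dnmt3a probe sets most.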
